A study of Mus musculus with 2 samples.

Results

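The enzymes that write and remove DNA methylation were followed in progenitors of group 2 innate lymphoid cells (ILC2), the bone marrow precursors of lymphocytes that release type 2 cytokines in tissues. The set was chosen by name and holds 8 genes of the 27179 in the deposited tables: the DNA methyltransferase genes Dnmt1, Dnmt3a, Dnmt3b and Dnmt3l, the dioxygenase genes Tet1, Tet2 and Tet3, and the DNA glycosylase gene Tdg. RNA sequencing was done on 2 libraries of 1 group, and each library was made from the pooled marrow cells of 8 mice. The mice were C57BL/6, 8 weeks of age, with no allele or treatment named, and the cells had been isolated by flow cytometry. Total RNA, 100 ng a library, was extracted with the RNeasy Micro kit and prepared with the Illumina TruSeq RNA kit. Which antibodies defined the gate, and whether the mice were male or female, is not stated in the labels. There is no second cell type, genotype or treatment, so levels are compared between genes within a library and between the pools, with no test of a condition.

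The libraries are called pool 1 and pool 2, numbers that only name them. In 2 of 2 files the column heading carried the sample code of the other library. Files were kept with the samples that hold them, and should the headings be the correct ones, pool 1 and pool 2 change places in every value below. The values are read numbers scaled by gene length and by library depth (RPKM), and the library totals recovered from them were 20216146 reads in pool 1 and 19834586 reads in pool 2. All 10 ILC2 marker genes reached 1 RPKM or more in both pools, as did 40.5% of all genes in the tables. The ILC2 markers had summed levels of 2738 RPKM in pool 1 and 2451 RPKM in pool 2. Of these 10 genes 5 were higher in each pool, and Id2, at 710 RPKM in pool 1 and 287 RPKM in pool 2, had the largest difference among them. Markers of other lineages were present in both pools, and their sums were higher in pool 2: 959 and 2252 RPKM for neutrophil and monocyte genes, 439 and 1253 RPKM for erythroid genes, 99.9 and 579 RPKM for eosinophil, mast cell and basophil genes, and 243 and 407 RPKM for T cell genes, each pair being pool 1 and then pool 2. The eosinophil, mast cell and basophil sum was carried by the eosinophil gene Prg2, at 27.2 RPKM in pool 1 and 471 RPKM in pool 2, and of that list's 6 genes 2 were past 1.5-fold in each direction, with Mcpt8 and Fcer1a higher in pool 1. Of the T cell markers 5 of 6 reached 1 RPKM in both pools, with Cd8a listed at 0, as did 2 of 6 B cell markers, 3 of 6 stem cell markers, 7 of 8 neutrophil and monocyte markers, 5 of 6 erythroid markers and 6 of 6 of the eosinophil, mast cell and basophil markers. The part of these cells in the levels of the 8 genes was not tested, and in such bulk RNA a smaller number of cells of a type and less RNA in each of those cells cannot be told apart.

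Methylation of cytosine in CpG pairs is laid down by DNMT3A and DNMT3B on sites that were unmethylated, while DNMT1 copies the pattern onto the new strand after replication, guided by UHRF1. DNMT3L has no catalytic activity of its own and assists the de novo enzymes, chiefly in germ cells. The TET proteins oxidise methylcytosine in steps, TDG cuts out the most oxidised forms, and base excision repair puts an unmodified cytosine back. In blood formation Dnmt3a and Tet2 are known for limiting stem cell self-renewal, and both genes are often mutated in human clonal haematopoiesis.

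Transcripts for 3 enzymes dominated the set: Dnmt1 was the highest, Tet3 and Dnmt3a followed at similar levels, and Dnmt3b, Tet2, Tet1 and Tdg were several-fold lower. The listed Tdg level is uncertain, because part of its sequence also occurs in other genes. Dnmt3l was at the limit of detection. Detection was set at a level of 1 RPKM in each pool, which 5 of the 8 genes reached, against 40.5% of all genes in the tables. All 8 had a value above 0 in either pool, as did 63.4% of all genes. Tet1 and Tdg missed the threshold in 1 pool each, Tet1 in pool 1 and Tdg in pool 2, and Dnmt3l missed it in both. Of the 8 genes, 3 lay above the median level of the 17233 genes with a value above 0 in either pool.

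**Figure D1:**
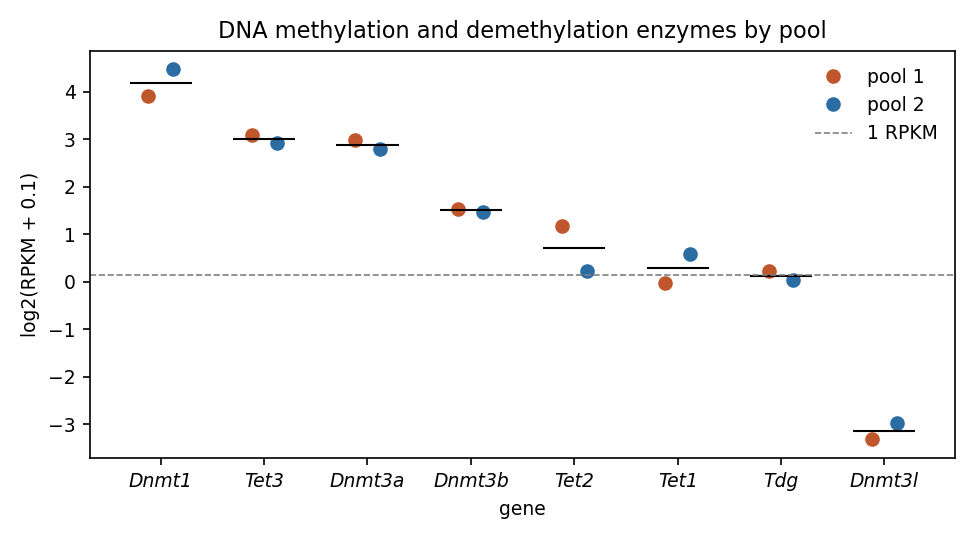
Levels of the 8 genes as log2(RPKM + 0.1), with a point for pool 1 and for pool 2, a short line at their mean and a dashed line at 1 RPKM. Dnmt1 is highest in both pools, at 14.9 RPKM in pool 1 and 22.0 RPKM in pool 2, and Dnmt3l is listed at 0 in pool 1 and at 0.0267 RPKM in pool 2.

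Dnmt1, the maintenance methyltransferase (Entrez ID 13433, chromosome 9, 20907206 to 20959888, minus strand, mm10), had 14.9 RPKM in pool 1 and 22.0 RPKM in pool 2, a mean of 18.5 ± 5.03 RPKM (SD, n = 2 pools, as for the means that follow). These values rested on 1902 reads in pool 1 and 2756 in pool 2. It ranked 4706th of the 17233 genes above 0 and was higher than 72.7% of them. It was the highest of the 8 genes in each pool, and its range did not overlap that of any other member.

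The de novo methyltransferases were both detected. Dnmt3a (Entrez ID 13435, chromosome 12, 3801559 to 3914443, plus strand) had 7.82 RPKM in pool 1 and 6.78 RPKM in pool 2, a mean of 7.30 ± 0.740 RPKM from 1558 and 1324 reads. Dnmt3b (Entrez ID 13436, chromosome 2, 153649411 to 153687730, plus strand) had 2.78 RPKM in pool 1 and 2.67 RPKM in pool 2, a mean of 2.73 ± 0.0776 RPKM from 243 and 229 reads. Dnmt3a was thus 2.81-fold above Dnmt3b in pool 1 and 2.54-fold above it in pool 2, and the ranges of both genes were apart. Of the stretches of 50 bases (50-mers) in annotated Dnmt3b transcripts, 9.81% also occur in its neighbour Dnmt3c, a methyltransferase gene of the mouse male germ line, so reads from those stretches cannot be assigned to either gene by sequence alone.

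Dnmt3l, the catalytically inactive cofactor (Entrez ID 54427, chromosome 10, 78042287 to 78063622, plus strand), was listed at 0 in pool 1 and at 0.0267 RPKM in pool 2, which is 0 reads and at least 1 read. The read numbers imply a length of 1885 bases, under the 2670 bases of annotated exons, so they are lower bounds and the floor that follows rests on that length. At these depths 3 reads, the number that a count of 0 still allows, equal 0.0787 RPKM in pool 1 and 0.0802 RPKM in pool 2. Both values were under that floor, so expression was not detectable at this depth and no ratio is given. Its exons overlap those of Aire on the opposite strand over 2.24% of their bases.

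Within the methyltransferases, Dnmt1 made up 58.5% of the summed RPKM of Dnmt1, Dnmt3a and Dnmt3b in pool 1 and 70.0% in pool 2. Dnmt3a contributed 30.6% in pool 1 and 21.5% in pool 2, and Dnmt3b 10.9% and 8.48%. The ratio of Dnmt1 to Dnmt3a was 1.91 in pool 1 and 3.25 in pool 2. The order of these genes was the same in both pools, and the distance of Dnmt1 from Dnmt3a was what differed most. Trdmt1, formerly called Dnmt2 and now known as an RNA methyltransferase, is named here after its values were seen, and had 4.65 RPKM in pool 1 and 6.35 RPKM in pool 2.

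Tet3 was the main TET transcript. This dioxygenase gene (Entrez ID 194388, chromosome 6, 83362373 to 83457208, minus strand) had 8.37 RPKM in pool 1 and 7.47 RPKM in pool 2, a mean of 7.92 ± 0.641 RPKM from 1846 and 1615 reads. Its range overlapped that of Dnmt3a: Tet3 was higher by 0.10 on the log2 scale in pool 1 and by 0.14 in pool 2, so their order does not hold beyond the spread between pools.

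Tet2 and Tet1 were the lower TET transcripts. Tet2 (Entrez ID 214133, chromosome 3, 133463677 to 133545136, minus strand) had 2.16 RPKM in pool 1 and 1.07 RPKM in pool 2, a mean of 1.62 ± 0.771 RPKM from 401 and 195 reads. Tet1 (Entrez ID 52463, chromosome 10, 62804570 to 62887469, minus strand) had 0.885 RPKM in pool 1 and 1.39 RPKM in pool 2, a mean of 1.14 ± 0.354 RPKM from at least 84 and 129 reads. The pools did not share the order of this pair: Tet2 was above Tet1 by 1.20 on the log2 scale in pool 1 and below it by 0.34 in pool 2. Their ranges overlapped, so Tet1 and Tet2 cannot be ranked.

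Of the summed TET RPKM, Tet3 took 73.3% in pool 1 and 75.2% in pool 2. Tet2 took 18.9% in pool 1 and 10.8% in pool 2, and Tet1 7.75% and 14.0%. The share of Tet3 was thus nearly the same in both pools, while Tet2 and Tet1 exchanged places below it. Summed over each family without Dnmt3l, the methyltransferases had 25.5 RPKM in pool 1 and 31.5 RPKM in pool 2, and the TET genes 11.4 and 9.92 RPKM. The methyltransferase sum was 2.24-fold the TET sum in pool 1 and 3.17-fold in pool 2. These ratios compare RNA levels per length and say nothing of protein or enzyme activity.

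Tdg, the glycosylase that removes oxidised methylcytosine (Entrez ID 21665, chromosome 10, 82629814 to 82650799, plus strand), had 1.06 RPKM in pool 1 and 0.924 RPKM in pool 2, a mean of 0.992 ± 0.0964 RPKM from 69 and 59 reads. These values lie just above and just below 1 RPKM, and inside the range of Tet1. Tdg has near-identical copies in the mouse genome, and 41.2% of the 50-mers of its annotated transcripts occur in 5 other annotated genes. The processed pseudogene Tdg-ps holds 29.4% of them. The transcribed pseudogene Gm9855 (Entrez ID 624784), chosen here after its values were seen, shares an unbroken stretch of 756 bases with the 1263 coding bases of Tdg and had 0.871 RPKM in pool 1 and 1.83 RPKM in pool 2. The Tdg value is therefore uncertain, since the treatment of reads that match several places is not stated in the labels. Genes named here after their values were seen differ in such sharing. Gapdh, with 25.1% of its 50-mers shared, had a mean of 5.06 RPKM. Ahcy, with 68.7% shared, had a mean of 3.86 RPKM, and Hprt, with 0% shared, had 76.5 RPKM. Whether reads matching several places were left out, which would make the listed Tdg level too low, was not tested. The window shown next covers coding bases 110 to 229 of Tdg, counted from the start codon, and the matching transcript bases 38 to 157 of Gm9855 (GENCODE M21, GRCm38). It was picked for having the most identical bases short of all 120, so it does not measure the likeness of the whole transcripts. Of the coding 50-mers of Tdg, 71.9% occur in Gm9855. At this upstream end of the shared stretch 119 of 120 bases are identical, and the capital letter marks the base that differs.
Tdg: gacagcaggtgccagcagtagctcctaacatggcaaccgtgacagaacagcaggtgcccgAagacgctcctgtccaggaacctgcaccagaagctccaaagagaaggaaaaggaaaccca
Gm9855: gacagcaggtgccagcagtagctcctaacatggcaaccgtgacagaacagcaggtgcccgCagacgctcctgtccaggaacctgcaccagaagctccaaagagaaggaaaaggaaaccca

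The part of shared sequence in the Tdg level was not tested. Among the other members outside the Dnmt3b and Dnmt3c pair, no gene shared more than 0.761% of its 50-mers with another gene.

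**Figure D2:**
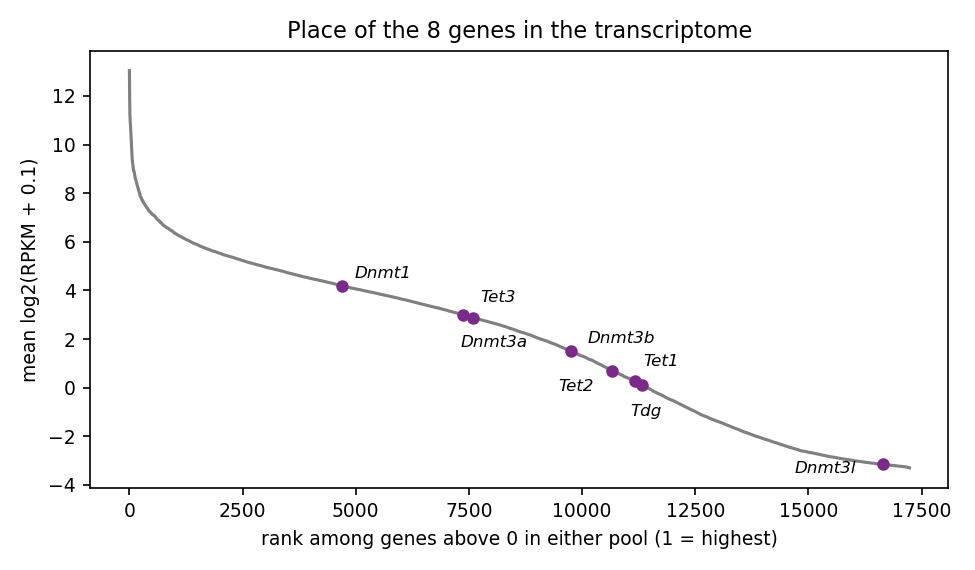
Mean level as log2(RPKM + 0.1) of every gene above 0 in either pool, ordered from highest to lowest, with the 8 genes marked. Dnmt1 stands at rank 4706 of 17233, Tet3 at 7376, Dnmt3a at 7602, Dnmt3b at 9762, Tet2, Tet1 and Tdg between 10662 and 11332, and Dnmt3l at 16638.

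Between the pools, Tet2 was the detected member with the largest difference. It was 1.93-fold higher in pool 1 on the log2(RPKM + 0.1) scale, where the added 0.1 shrinks differences at low levels. The ratio of its depth-corrected reads was 2.02, with an exact 95% interval of 1.70 to 2.41. That interval covers counting error only and not the spread between animals. Tet2 was the 1 detected member past 1.5-fold, where 8.45% of the 11013 detected genes lie, and among the 1754 genes with a mean of 1 to 3 RPKM 30.4% were past 1.5-fold, 9.41% on the side of pool 1, and 14.9% were at least as far apart as Tet2. Immediate early genes, which respond within minutes to stimulation and to cell handling, had summed levels of 8806 RPKM in pool 1 and 403 RPKM in pool 2, with 6 of 6 higher in pool 1. Their part in the Tet2 value was not tested.

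Dnmt1 differed in the other direction. It was 1.47-fold higher in pool 2, a log2 ratio of pool 1 over pool 2 of -0.56, against a median of -0.04 over all detected genes. By reads the ratio of pool 1 over pool 2 was 0.677, with an exact 95% interval for counting error of 0.638 to 0.718. Dnmt1 stayed inside the 1.5-fold limit, and of the 3565 genes with a mean of 10 to 30 RPKM 5.78% were at least as far apart and 5.13% were past it. Genes of DNA replication and division were also higher in pool 2: in a list of 12 S phase genes all 10 detected ones were, with sums of 243 RPKM in pool 1 and 298 RPKM in pool 2 and a median log2 ratio of -0.35. In a list of 10 mitotic genes all 8 detected ones were higher in pool 2, with sums of 27.1 RPKM in pool 1 and 54.4 RPKM in pool 2 and a median log2 ratio of -0.95. Over all detected genes 57.3% were higher in pool 2 by any amount, and the part of cell division in the Dnmt1 level was not tested.

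The remaining members were close between pools, apart from Tet1. Dnmt3a had a log2 ratio of pool 1 over pool 2 of 0.20, Tet3 of 0.16 and Dnmt3b of 0.06. The read ratios were 1.15 for Dnmt3a with an exact 95% counting interval of 1.07 to 1.24, 1.12 for Tet3 with 1.05 to 1.20, and 1.04 for Dnmt3b with 0.866 to 1.25, so that Dnmt3b was not separated from equality by its counting error. Among the genes under detection, Tet1 had a log2 ratio of -0.59, 1.51-fold higher in pool 2, and of the genes with a mean of 1 to 3 RPKM 30.0% were at least as far apart. Tdg had a read ratio of 1.15 with an interval of 0.799 to 1.65, so no difference was detectable at its depth. With 2 libraries no likeness of pattern between genes can be measured, and none is given.

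**Figure D3:**
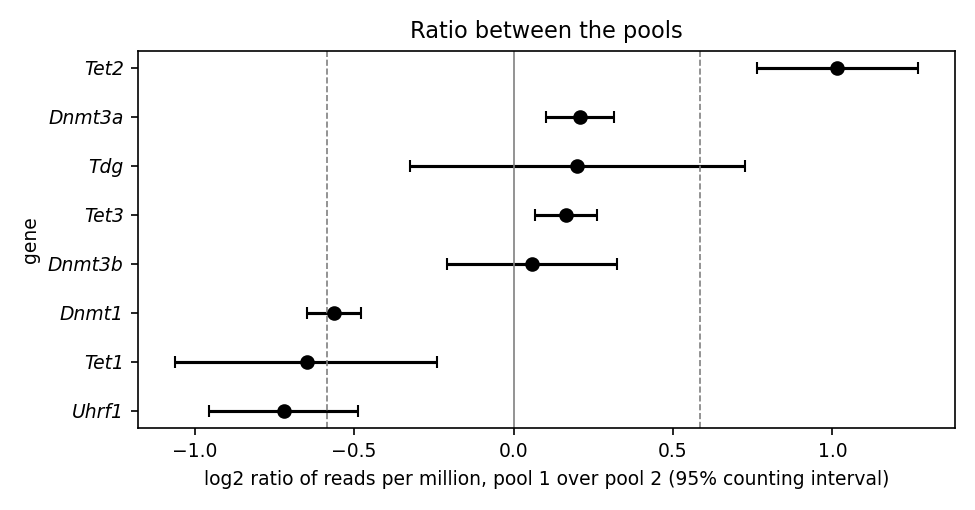
Log2 ratio of depth-corrected reads, pool 1 over pool 2, for 7 members and Uhrf1, with exact 95% counting intervals as bars and dashed lines at 1.5-fold. Tet2, with a read ratio of 2.02, lies on the side of pool 1, Dnmt1 with 0.677, Tet1 with 0.639 and Uhrf1 with 0.607 lie on the side of pool 2, and the other members lie nearer to 0.

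The promoters of the 8 genes differed in their own content of CpG pairs, the substrate of these enzymes. CpG pairs were counted in the 250 bases before each annotated start (RefSeq, GRCm38.p6), and the 8 genes had 14 such windows. Tet2 had 51 CpG pairs, more than 99.9% of the 18458 genes matched, whose median was 10. The richest window held 40 for Dnmt3a, 26 for Dnmt1, 21 for Dnmt3b, 19 for Tdg, 17 for Tet3, 15 for Tet1 and 5 for Dnmt3l. Those of Dnmt3a, Dnmt1, Tdg, Tet1 and Dnmt3l overlap annotated exons of the same gene, and those of Tet2, Dnmt3b and Tet3 do not. The richest window clear of such exons held 38 for Dnmt3a and 7 for Dnmt1. By the richest window, with or without exon overlap, a count of 20 or more was found in 4 of the 8 genes. The same held for 25.8% of all genes, and 93.2% of genes had 1 or more. Over all genes, 72.7% of the 4761 with 20 or more were detected, against 36.1% of the 13697 with fewer. Dnmt3l, the lowest member in the data, was also the one with the fewest, while Tet2 had the most and a low level. The windows of Tet2 (chr3:133544391-133544640, minus strand) and of the second Dnmt3l start (chr10:78049592-78049841, plus strand, 4 CpG pairs) are shown as an example of a rich and of a poor window, with every CG in capitals. The Dnmt3l window shown overlaps no exon of the gene, unlike its window with 5, and the poorest of the 14 windows was another start of Dnmt1 with 2. No methylation was measured, so the sequence says only where methylation could be placed.
Tet2: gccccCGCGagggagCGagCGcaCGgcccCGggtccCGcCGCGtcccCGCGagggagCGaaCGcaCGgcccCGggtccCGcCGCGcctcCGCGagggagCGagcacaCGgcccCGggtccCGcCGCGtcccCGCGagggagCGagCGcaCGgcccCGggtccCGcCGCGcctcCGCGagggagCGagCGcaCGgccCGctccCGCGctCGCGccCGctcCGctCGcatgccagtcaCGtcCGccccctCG
Dnmt3l: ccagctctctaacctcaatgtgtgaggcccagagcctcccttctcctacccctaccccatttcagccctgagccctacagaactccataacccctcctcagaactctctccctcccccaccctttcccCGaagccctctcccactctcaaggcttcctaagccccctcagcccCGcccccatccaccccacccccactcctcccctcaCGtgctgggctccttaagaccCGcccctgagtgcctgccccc

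The genes that work with these enzymes were then read from 9 lists of 85 genes, of which 56 were detected. Between the pools, 1 of the 56 was 1.5-fold higher in pool 1, where 2.60% of all detected genes were, and 5 were 1.5-fold higher in pool 2, where 5.86% were. The gene higher in pool 1 was Gadd45b, and those higher in pool 2 were Uhrf1, Zbtb33, Smug1, Mbd4 and Idh1.

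The partners of maintenance methylation were detected in 7 of 7 cases, with a median level of 4.13 on the log2(RPKM + 0.1) scale. Medians here are over all genes of a list, and the same median was 2.31 over the 17233 genes above 0 and 3.86 over all detected genes. Pcna, the replication clamp that holds DNMT1 at the fork, had 55.7 RPKM in pool 1 and 65.6 RPKM in pool 2, and Uhrf2 had 31.0 and 41.1 RPKM. Uhrf1, which recruits DNMT1 to hemimethylated sites, stood lowest among them, with 3.35 RPKM in pool 1 and 5.51 RPKM in pool 2. Uhrf1 was 1.63-fold higher in pool 2, the same side as Dnmt1. Of the 7 partners 6 were higher there by any amount, where 57.3% of all detected genes were. The median log2 ratio of the partners was -0.41.

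The methyl-CpG readers, proteins that bind methylated DNA, were detected in 7 of 7 cases and had the highest median of the lists, 4.79. Mbd2 had 76.5 RPKM in pool 1 and 81.1 RPKM in pool 2, and Mbd3, a subunit of the NuRD complex that in mammals binds methylated DNA weakly, had 68.0 and 57.5 RPKM. The lowest was Zbtb38 at 6.52 RPKM in pool 1 and 5.82 RPKM in pool 2. Levels of Mbd2 were thus above those of every one of the 8 enzyme genes in both pools. Zbtb33, which encodes the reader Kaiso, had 11.9 RPKM in pool 1 and 17.9 RPKM in pool 2.

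Of 12 base excision repair genes, some of them glycosylase genes like Tdg, 10 were detected, with a median level of 3.06. Parp1, the sensor of strand breaks, had 56.7 RPKM in pool 1 and 54.8 RPKM in pool 2, and Polb, the polymerase that fills the gap, had 22.7 and 28.0 RPKM. The glycosylase gene Neil3 was lowest, at 0.417 RPKM in pool 1 and 0.828 RPKM in pool 2. Mbd4, whose product removes thymine and uracil opposite guanine at CpG sites as TDG also does, had 2.10 RPKM in pool 1 and 4.01 RPKM in pool 2, and Smug1, a uracil glycosylase gene, had 4.29 and 6.63 RPKM. Both Mbd4 and Smug1 were thus higher in each pool than Tdg was listed.

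Of the GADD45 and cytidine deaminase genes, proposed helpers of demethylation, 5 of 6 were detected with a median level of 2.99. Apobec3, an antiviral deaminase gene, had 99.7 RPKM in pool 1 and 105 RPKM in pool 2. Gadd45b, a stress-induced gene, had 51.3 RPKM in pool 1 and 12.4 RPKM in pool 2, 4.11-fold higher in pool 1, and was the only gene of the 9 lists that was detected and past 2-fold, where 2.56% of all detected genes were. It lies on the side on which the immediate early genes were high, whose part was not tested.

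The TET regulators and suppliers of their cosubstrate were detected in 7 of 9 cases, with a median of 2.85. Idh3a and Idh2, which encode enzymes that make 2-oxoglutarate in mitochondria, had 51.0 and 38.4 RPKM in pool 1 and 51.2 and 38.5 RPKM in pool 2. Idh1, which encodes the cytosolic enzyme, had 3.37 RPKM in pool 1 and 6.10 RPKM in pool 2. Dppa3, an oocyte and germ cell factor, was listed at 0 in both pools.

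The methionine and S-adenosylmethionine cycle, which makes the methyl donor, had 8 of 11 genes detected and a median of 2.90. Its highest members were Ahcyl2 at 199 RPKM in pool 1 and 159 RPKM in pool 2 and Mat2b, the regulatory subunit gene of the donor synthase, at 87.0 and 98.4 RPKM. The liver genes Mat1a and Bhmt were listed at 0 in both pools. Of the histone methyltransferases and partners tied to DNA methylation, 7 of 8 were detected with a median of 3.91. The highest were Trim28, the corepressor of KRAB zinc finger proteins, at 129 RPKM in pool 1 and 115 RPKM in pool 2, and Ehmt2, the gene of G9a, at 88.6 and 91.7 RPKM. The lowest was Suv39h2 at 0.370 RPKM in pool 1 and 0.777 RPKM in pool 2.

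**Figure D4:**
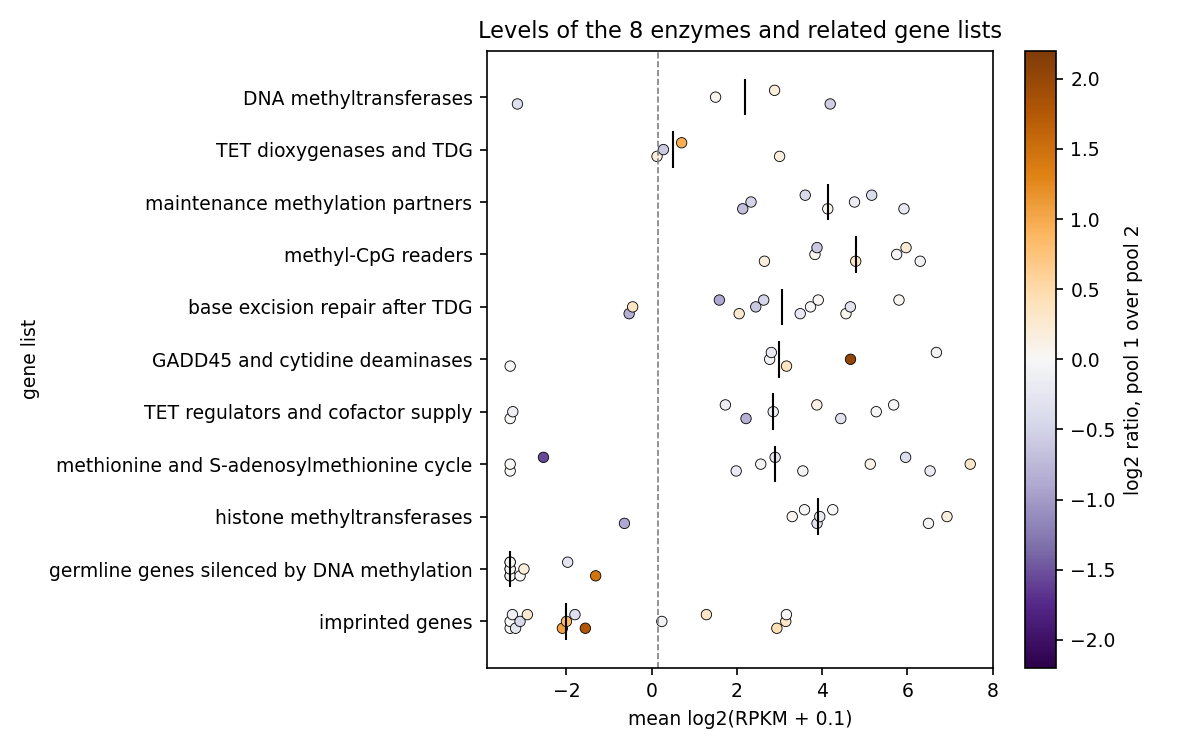
Levels as log2(RPKM + 0.1), mean of both pools, for the members and for each of the 9 lists, with a point for each gene, coloured by its log2 ratio of pool 1 over pool 2, a short line at each list's median and a dashed line at 1 RPKM. Methyl-CpG readers have the highest median, 4.79, and the germline genes the lowest.

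Finally, 2 lists of genes that DNA methylation is known to keep silent or to mark were read. Of 10 germline genes 0 were detected, against 40.5% of all genes in the tables, and 6 were listed at 0 in both pools. The highest were Tex101 at 0.563 RPKM in pool 1 and 0.144 RPKM in pool 2 and Sycp3 at 0.132 and 0.180 RPKM. Of 15 imprinted genes 5 were detected, a count to be read beside the same 40.5% of all genes. Igf2r, a receptor gene expressed from the maternal allele in mice, had 8.81 RPKM in pool 1 and 8.88 RPKM in pool 2, and Impact, expressed from the paternal allele, had 9.80 and 7.82 RPKM. Meg3 and Snrpn were listed at 0 in both pools. The tables hold no allele or methylation values, so the state of these loci was not measured.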

How the data were processed

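RNA sequencing of 2 libraries of 1 group was used. The authors deposited 1 table of RPKM values per library, with 27179 rows by Entrez ID. Tools listed in the submitters' processing notes are featureCounts, CASAVA 1.8.2 and edgeR 3.8.2 and 3.22.0, with the mm10 build. Aligner, strand setting and handling of reads with several matches: not given in the sources used here. Because values are RPKM with 1 sample a side, no count test was run and differences are given by fold.

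The 8 genes were matched by symbol and ID (8 of 8). Levels are log2(RPKM + 0.1), averaged over the pools, and detection means 1 RPKM or more in both. Library totals were recovered from the steps between RPKM values, and with them 17233 of 17233 genes above 0 gave whole reads (100%) within the rounding of the values. Reads are the smallest whole numbers possible. For Tet1 and Dnmt3l they imply lengths of 4694 and 1885 bases, under the annotated exons, so these reads are lower bounds, and the Tet1 interval is at its widest. The length implied for Tdg, 3218 bases, was also 8.92% under its 3533 bases of annotated exons. Intervals are exact Clopper-Pearson intervals at 95% on the share of reads in pool 1. The computation was tested on simulated data. The labels do not say whether sorting and preparation were done separately, so the SD over 2 pools may be partly technical.

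Named genes were the 8 members, the 2 highest and the lowest of each list, and genes past 2-fold between pools at 1 RPKM or more in both; genes in counts of 5 or fewer are also named. A gene that this rule takes is not reported here. Members, lists and marker genes were chosen with earlier results of these data known. Shared sequence was counted as 50-mers over GENCODE M21 transcripts, and promoters came from RefSeq (GRCm38.p6). Python 3.11.15, numpy 2.4.6, pandas 2.3.3, scipy 1.17.1 and matplotlib 3.10.9 were used.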

Additional observations from a re-analysis of the deposited data

How the results depend on the processing

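The number of members detected, 5 at 1 RPKM in both pools, was 7 at 0.5 RPKM and 3 at 5 RPKM, and 6 with either pool left out. The median member level, 1.10 on the log2(RPKM + 0.1) scale, was 1.63 with a pseudocount of 1 and between 1.02 and 1.35 with a pool left out. The count of members past 1.5-fold, 1, was 0 at 2-fold, 2 with no filter on low values (Tet1 joining Tet2) and 0 with a filter of 5 RPKM; without a pseudocount, an alternative chosen after seeing the data, 1 member passed 2-fold. Tet1 had log2 ratios of -0.34 with a pseudocount of 1 and -0.55 under each of 2 other scalings, which moved all genes by 0.04 and 0.05. The log2 ratio of Dnmt1 over Dnmt3a, 1.32, was 0.67 without division by length and between 0.93 and 1.70 with a pool left out. The log2 ratio of Tet2 over Tet3, -2.38, ranged between -2.80 and -1.95 with a pool left out. The log2 ratio of the methyltransferase sum over the TET sum, 1.41, was between 1.16 and 1.67 with a pool left out. Without division by length it was at most 0.91, since the Tet1 reads in that sum are lower bounds. No direction was reversed under the alternatives run. No paired analysis was possible because there is 1 group. Depth limits Dnmt3l and Tdg, and intervals cover counting error only.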
